A study of Bos indicus x Bos taurus with 11 samples.

Results

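The genes described here are 9 genes of the p53 response and of growth arrest: CDKN1A, MDM2, GADD45A, TP53INP1, CDKN2B, SESN1, SESN2, CCNG1 and PLK2. They were taken by gene name from a table of 27398 genes and loci, and all 9 were found there. Of them, 7 were also in the table of reads assigned to a parental allele, which holds 9716 genes, and MDM2 and CCNG1 were not.

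Total RNA was sequenced from skin fibroblasts that had been grown as primary cells, with 1 library for each of 11 cattle fetuses taken at day 105. Each fetus was an F1 hybrid of the Angus breed (Bos taurus taurus) with the Brahman breed (Bos taurus indicus), and all cultures were grown in medium with 10% fetal bovine serum. The 5 controls (2 females, controls 1 and 2, and 3 males, controls 3 to 5) came from artificial insemination. Large offspring syndrome (LOS) is an overgrowth condition of cattle, and the 6 LOS fetuses were conceived by assisted reproduction and weighed more than the 97th centile of the controls (3 females, LOS 1 to 3, and 3 males, LOS 4 to 6). LOS and assisted conception therefore cannot be told apart in these libraries. The values describe cultured cells and not skin itself, and the labels name neither the passage nor the density of each culture. The labels do not say which breed was the dam, so the parent and the breed of an allele cannot be told apart.

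p53 is a transcription factor that accumulates after DNA damage and other stress and switches on genes that halt the cell cycle, repair DNA or start cell death. CDKN1A (p21) is its best known arrest target and blocks cyclin-dependent kinases, while MDM2 is a target that returns p53 to a low level by marking it for degradation. In cultured fibroblasts, arrest genes such as CDKN1A and CDKN2B are known for their rise when cells stop dividing or enter senescence. Several of the genes also respond to signals other than p53, such as TGF-beta for CDKN2B and amino acid shortage for SESN2.

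The libraries held 12084822 (LOS 1) to 19297167 (LOS 6) counts, with means of 16440995 in controls and 14460604 in LOS (exact permutation test over libraries, two-sided, p = 0.193). All 14 fibroblast markers were present, with a summed level of 62521 to 77686 CPM (counts scaled to the normalised library size) in controls and 64684 to 77575 CPM in LOS. Keratinocyte markers summed to at most 24.7 CPM, endothelial markers to 5.26 CPM and leukocyte markers to 4.99 CPM in any library. Pericyte and smooth muscle markers, several of which cultured fibroblasts also express, summed to 1674 to 5644 CPM in controls and 2554 to 6198 CPM in LOS (exact permutation p = 0.851). Melanocyte and Schwann cell markers summed to 49.7 to 339 CPM in controls and 59.0 to 141 CPM in LOS (exact permutation p = 0.403). The part of these other cell types in the results below was not tested.

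None of the 9 genes passed the test between LOS and control, and neither did any other gene. The quasi-likelihood test of edgeR, adjusted by Benjamini-Hochberg, called 0 of 16946 genes (0%), against 752 genes (4.44%) at an unadjusted p under 0.05. DESeq2 called 5 genes (0.0296%), none of them among the 9, and limma voom called 0. Of the 9 genes, 8 had a fitted log2 fold change above 0, with a median of 0.34, against 49.8% of all genes tested and a median of -0.00. In edgeR, GADD45A alone of the 9 had an unadjusted p under 0.05. In DESeq2 and limma voom the unadjusted p of TP53INP1 was under it too (0.0374 and 0.0489). The genes vary together in part, so these counts do not stand for 9 independent comparisons. The 9 genes were also chosen with earlier results of these data known, so the counts are a description and not a test. In these bulk cultures, a change in the share of cells that use a gene and a change in RNA per cell cannot be told apart.

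**Figure D1:**
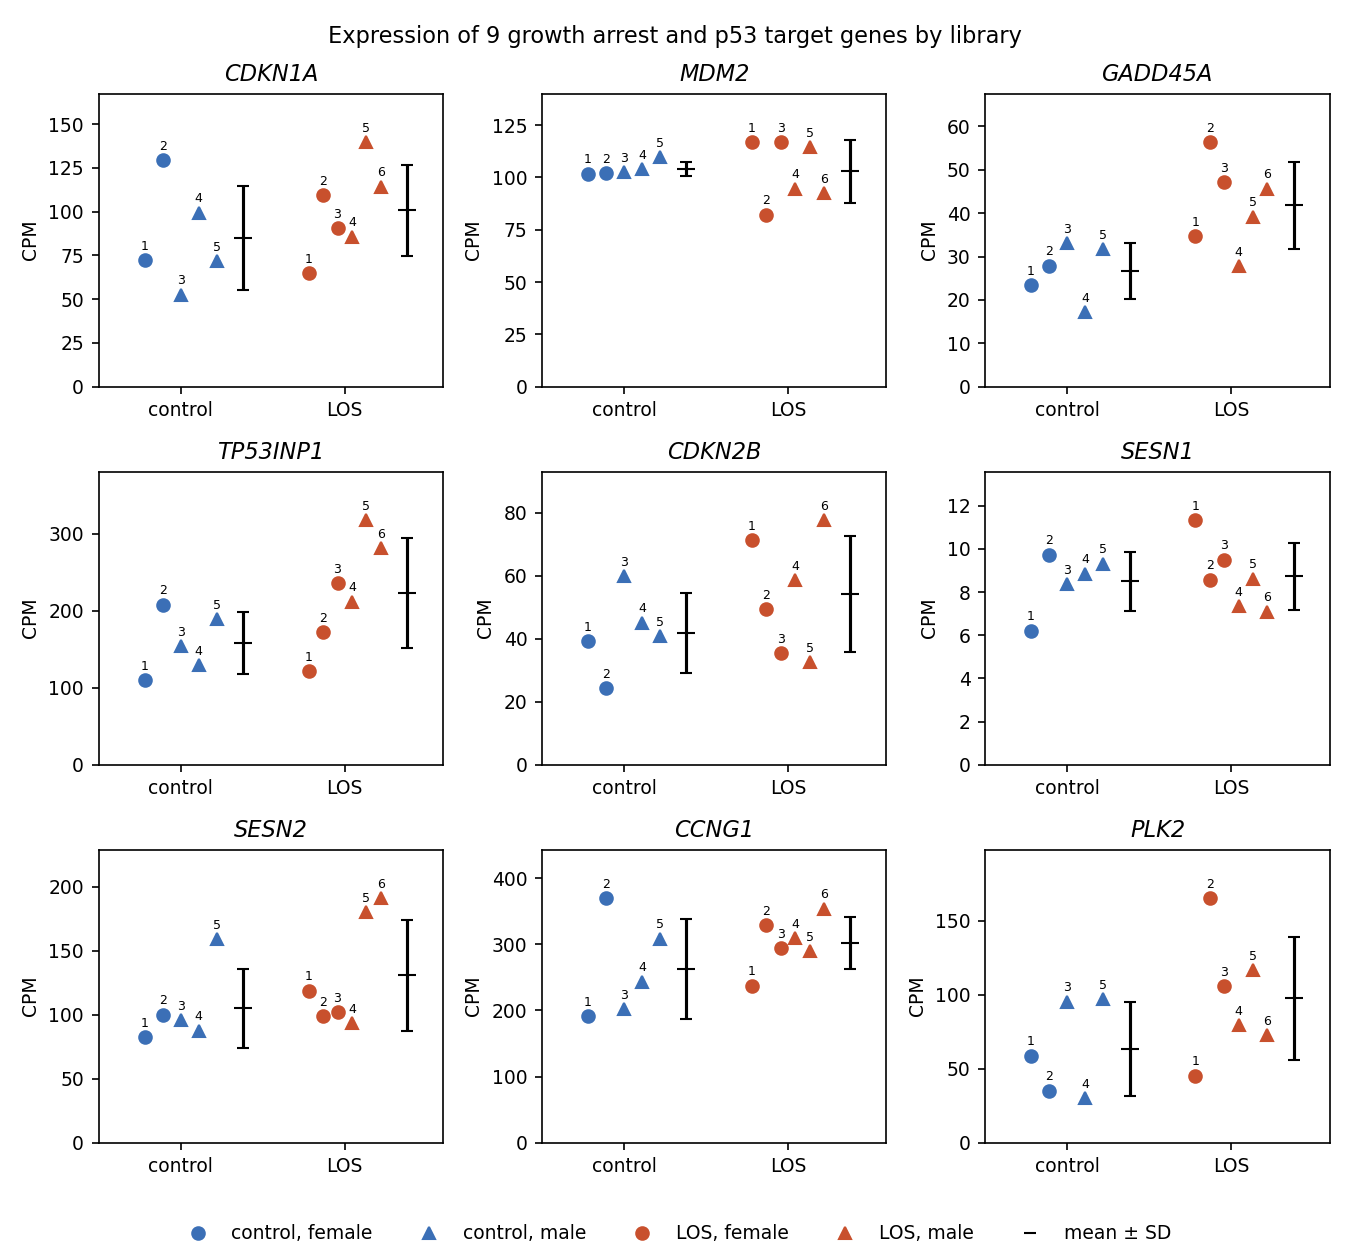
Level of each of the 9 genes in CPM (vertical axes, from 0, 1 panel per gene) in the 5 controls and 6 LOS libraries (points), with the mean and SD of each group. The groups overlap for every gene, MDM2 sits in a narrow band in controls (102 to 110 CPM), and PLK2 ranges from 29.9 to 165 CPM.

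MDM4, a relative of MDM2 that binds p53 and blocks its activity, was at 85.2 ± 4.51 CPM in controls (SD, n = 5) and 93.8 ± 6.08 CPM in LOS (SD, n = 6). Its log2 fold change was 0.15 ± 0.07 (SE, edgeR adjusted p = 0.932), and 3 LOS libraries were above all controls. The share of all genes with as many LOS libraries above all controls was not counted, here or for CDKN1A, CDKN2B, SESN2 and PLK2 below.

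MDM2 (gene 540378, minus strand of chromosome 5, 44977671 to 45005361 on ARS-UCD1.2) encodes the ubiquitin ligase that degrades p53. Its level in controls 1 to 5 was 102, 102, 103, 104 and 109.6 CPM. In LOS it was 116.7, 82.1, 116.8, 94.6, 114 and 92.5 CPM in libraries 1 to 6. The group means were nearly equal, and yet no LOS library fell inside the control range: LOS 1, 3 and 5 lay above it and LOS 2, 4 and 6 below it. Among all genes tested, 304 (1.79%) had every LOS library outside the control range. The SD of log2 CPM was 0.04 in controls and 0.22 in LOS, and no test of that difference in spread was made. The log2 fold change was -0.02 ± 0.11 (edgeR adjusted p = 0.988), and it changed sign without control 5 (0.00305), LOS 2 (0.04), LOS 4 (0.00934) or LOS 6 (0.02).

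CDKN1A (gene 513497, plus strand of chromosome 23, 10573389 to 10590591) encodes p21, the inhibitor of cyclin-dependent kinases. Control levels were 72.2, 129, 52.5, 99.5 and 71.7 CPM in libraries 1 to 5. LOS levels ran from 64.997 CPM in LOS 1 through a median of 99.99 CPM to 139.6 CPM in LOS 5. Only LOS 5 exceeded the highest control, control 2, so the groups overlapped nearly whole. Between the groups, the log2 fold change was 0.24 ± 0.25 (edgeR adjusted p = 0.932). It ranged from 0.10 without control 3 to 0.50 without control 2. A lncRNA, LOC112443704, lies on the opposite strand within the gene's span with 1 to 6 counts per library. An assembled locus there had 0 to 3 counts, and the sources used here do not say whether counting used strand.

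CDKN2B (gene 527124, plus strand of chromosome 8, 22082124 to 22087035) encodes p15, an inhibitor of the cyclin D kinases CDK4 and CDK6. In controls it stood at 39.2, 24.2, 60.0, 45.1 and 40.8 CPM, and in LOS at 71.4, 49.4, 35.4, 58.7, 32.6 and 77.7 CPM. LOS 1 and LOS 6 were above all controls, while LOS 3 and LOS 5 were below the control median. The log2 fold change was 0.43 ± 0.26 (edgeR adjusted p = 0.932). CDKN2A, its neighbour that encodes p16 and ARF, was at 21.95 ± 13.4 CPM in controls (SD, n = 5) and 25.8 ± 7.43 CPM in LOS (SD, n = 6). All 6 LOS libraries were above the control median of 15.1 CPM for CDKN2A but none was above the highest control, at 40.7 CPM. The log2 fold change of CDKN2A was 0.35 ± 0.32.

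GADD45A (gene 505463, minus strand of chromosome 3, 77648759 to 77651847) encodes a small stress protein that binds cell cycle and repair proteins and activates stress kinases. Its control levels were 23.4, 27.8, 33.0, 17.1 and 31.7 CPM. Its LOS levels were 34.7, 56.3, 47.2, 27.8, 39.1 and 45.7 CPM. LOS libraries 1, 2, 3, 5 and 6 were above every control, and LOS 4 lay within the control range. At least 5 LOS libraries were above all controls at 243 genes (1.43% of those tested). The means were 26.6 ± 6.50 CPM in controls (SD, n = 5) and 41.8 ± 10.1 CPM in LOS (SD, n = 6), a log2 fold change of 0.63 ± 0.21. The unadjusted p of the edgeR fit was 0.0112 and the adjusted p 0.932, so the difference did not pass.

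TP53INP1 (gene 782667, plus strand of chromosome 14, 69395966 to 69412215) encodes a nuclear protein that promotes p53 activity and takes part in autophagy. Controls 1 to 5 had 109.4, 207, 154, 129 and 189 CPM, and LOS 1 to 6 had 121, 172, 236, 211.5, 317 and 281 CPM. LOS 3 to 6 exceeded every control, whereas LOS 1 and LOS 2 lay inside the control range. At least 4 LOS libraries were above all controls at 5.15% of genes tested. The log2 fold change was 0.50 ± 0.23, with an unadjusted edgeR p of 0.0523 and an adjusted p of 0.932.

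The sestrins restrain the growth kinase complex mTORC1 and limit oxidative damage. SESN1 (gene 538226, plus strand of chromosome 9, 41068909 to 41183445) had few counts, at 6.21, 9.73, 8.36, 8.85 and 9.32 CPM in controls. Its LOS levels ran from 7.08 to 11.3 CPM around a median of 8.59 CPM. Its groups overlapped, and the log2 fold change was 0.02 ± 0.16 (edgeR adjusted p = 0.994). That sign turned without control 1 (-0.13), LOS 1 (-0.05) or LOS 5 (-5.48e-05). Assembled loci on both strands lie within the span of SESN1, the highest with 5.996 to 23.5 counts per library, so its counts may be split.

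SESN2 (gene 509863, minus strand of chromosome 2, 125114002 to 125131785) had 82.5, 100.1, 95.9, 87.7 and 159 CPM in controls 1 to 5. In LOS it had 119, 98.9, 102, 93.4, 180.2 and 191 CPM. Only the males LOS 5 and LOS 6 were above the highest control, which was the male control 5. The other 8 libraries lay between 82.5 and 119 CPM. LOS against control gave a log2 fold change of 0.34 ± 0.21 (edgeR adjusted p = 0.932).

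CCNG1 (gene 281671, plus strand of chromosome 7, 75115945 to 75123209) encodes cyclin G1, a p53 target that acts with a phosphatase on MDM2. Its control levels were 191, 369, 202, 243 and 309 CPM. In LOS it ran from 237 CPM in LOS 1 through a median of 302 CPM to 354 CPM in LOS 6. All LOS libraries fell inside the control range, whose top was control 2. CCNG1 thus had a log2 fold change of 0.20 ± 0.18 (edgeR adjusted p = 0.932), which ranged from 0.09 without control 1 to 0.42 without control 2.

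PLK2 (gene 539449, plus strand of chromosome 20, 20847409 to 20853386) encodes a polo-like kinase that is induced by stress and serum. It had 58.6, 35.01, 95.2, 29.9 and 96.8 CPM in controls and 45.3, 165, 106, 79.4, 116 and 72.7 CPM in LOS. LOS 2, 3 and 5 were above all controls and LOS 1 was below the control median. Its log2 fold change was the largest of the 9 genes, at 0.67 ± 0.40, but so was its error (edgeR adjusted p = 0.932).

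**Figure D2:**
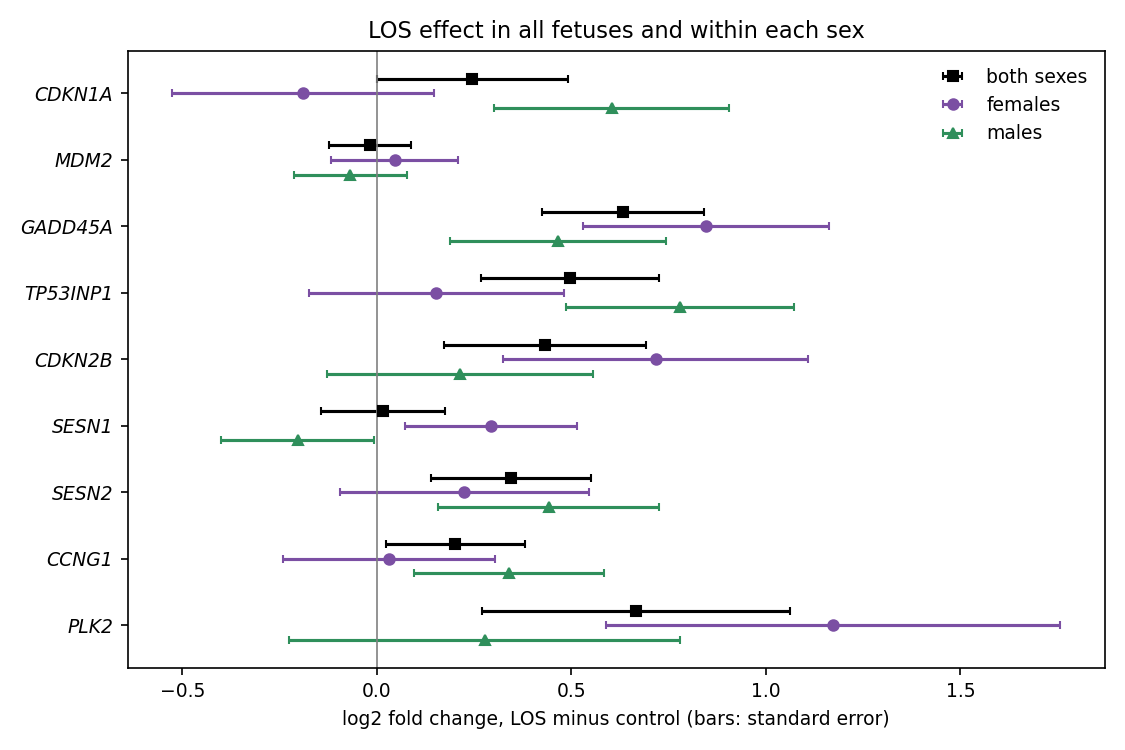
Log2 fold change of LOS against control for each of the 9 genes, over all libraries, in females and in males (horizontal axis, log2 scale), with points for the fitted value and bars for 1 SE. Over all libraries, GADD45A at 0.63 and PLK2 at 0.67 lie farthest to the right and MDM2 and SESN1 lie near 0, and no gene passed the adjusted threshold.

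Single libraries spread widely at most of these genes. After group and sex were fitted, the residual SD of log2 CPM was 0.74 for PLK2, and 97.3% of the 3465 genes with a mean of at least 50 CPM had a lower one. For CDKN1A it was 0.46 (91.0% of those genes lower), for TP53INP1 0.43 (88.5%), for SESN2 0.39 (85.6%) and for CCNG1 0.32 (79.7%). MDM2 was the exception at 0.17 (42.6%), near the median of 0.19 for genes at that level. The level of 50 CPM was chosen after the values were seen. GADD45A (0.38), CDKN2B (0.49) and SESN1 (0.26) lay below it, against a median of 0.31 over all genes tested.

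The other genes of the pathway were read from lists. Of the 12 tested genes of the p53 pathway core, which holds the kinases, ligases and phosphatases around p53, 6 had a log2 fold change above 0 and 6 below, and 0 were called (median -0.01). The 4 with the smallest p were CHEK2, a checkpoint kinase that phosphorylates p53 (log2 fold change -0.45 ± 0.21), MDM4, HIPK2, a kinase of p53 (0.18 ± 0.09), and PPM1D, a phosphatase that shuts the response off (0.30 ± 0.19). Of 25 tested p53 targets of repair and survival, 13 were higher and 12 lower, with a median of 0.06 and 0 called. By smallest p the list was led by TIGAR, which was lower in LOS. FBXW7 (log2 fold change 0.19 ± 0.11), PLK3 (0.26 ± 0.16) and SUSD6 (0.20 ± 0.12) came next, all of them higher in LOS. TIGAR, which slows glycolysis, was at 34.2 ± 1.601 CPM in controls (SD, n = 5) and 29.2 ± 3.20 CPM in LOS (SD, n = 6). Its log2 fold change was -0.22 ± 0.09, and 4 LOS libraries were below all controls. The share of all genes with as many LOS libraries below all controls was not counted, here or for CASP8, CDKN1C and FOXO1 below.

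Among 10 tested p53 targets of cell death, 8 had a log2 fold change above 0 and 2 below, with a median of 0.12 and 0 called. AEN, a nuclease induced by p53, had 34.5, 35.8, 35.7, 31.8 and 36.5 CPM in controls. In LOS, AEN ran from 37.2 CPM in LOS 1 through a median of 42.4 CPM to 43.5 CPM in LOS 4. Its groups did not overlap, which held for 39 of all genes tested (0.230%). The log2 fold change of AEN was 0.24 ± 0.08, and it did not pass (edgeR unadjusted p = 0.0078, adjusted p = 0.932). CASP8, an initiator caspase, was at 11.4 ± 1.79 CPM (SD, n = 5) in controls against 8.29 ± 1.45 CPM (SD, n = 6) in LOS, where 5 libraries were below all controls (log2 fold change -0.44 ± 0.15, edgeR adjusted p = 0.932). BAX, a pore-forming death protein, had a log2 fold change of 0.23 ± 0.15, and PIDD1, a death-domain scaffold protein, one of 0.29 ± 0.19.

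Of 16 other CDK inhibitors and RB and E2F family genes, 7 were higher and 9 lower, with a median log2 fold change of -0.10 and 0 called. CDKN1B (p27) was at 18.2 ± 2.91 CPM in controls (SD, n = 5) and 17.8 ± 3.364 CPM in LOS (SD, n = 6). CDKN1C (p57), an imprinted inhibitor, was at 11.7 ± 1.67 and 9.14 ± 6.86 CPM, with 4 LOS libraries below all controls and 1 above (log2 fold change -0.41 ± 0.35). CDKN2C (p18) had a log2 fold change of -0.62 ± 0.26, and E2F2, an activator of S phase genes, one of -1.18 ± 0.53 at a low level (1.34 CPM in controls and 0.661 CPM in LOS). Of 12 G1 cyclins and CDKs, 5 were higher and 7 lower, with a median of -0.03.

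The 40 proliferation genes, which serve DNA replication and mitosis, had 1 log2 fold change above 0 and 39 below, with a median of -0.41, but 0 were called. CDC45, a replication factor, had the smallest p of them (log2 fold change -0.47 ± 0.15, edgeR adjusted p = 0.932). Of 20 immediate early genes, 17 were above 0 and 3 below, with a median of 0.18 and 0 called. IER5 had a log2 fold change of 0.67 ± 0.20, EGR1, a zinc finger factor induced by serum, 0.71 ± 0.24, and DUSP1, a phosphatase of MAP kinases, 0.54 ± 0.23. The genes of a list are not independent of each other, and the lists were chosen with earlier results of these data known. The number on 1 side of 0 is therefore not a test. Of 14 tested senescence and secreted factor genes, 7 were higher and 7 lower. LMNB1, a lamin known to be lost in senescence, had a log2 fold change of -0.43 ± 0.25. GLB1, the lysosomal beta-galactosidase known to be raised in senescence, had one of -0.18 ± 0.11, and IGFBP3, a secreted binding protein of insulin-like growth factors, one of -0.75 ± 0.40. HMGB1, a chromatin protein, had non-overlapping groups at 73.6 ± 5.70 CPM in controls (SD, n = 5) and 56.2 ± 6.16 CPM in LOS (SD, n = 6), a log2 fold change of -0.40 ± 0.09 (edgeR adjusted p = 0.932). The sources used here do not say how reads shared with HMGB1 pseudogenes were counted. Of 13 FOXO factors and targets, 7 were higher and 6 lower, and FOXO1, a factor that drives arrest genes when insulin signalling is low, had -0.65 ± 0.18 with 5 LOS libraries below all controls.

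**Figure D3:**
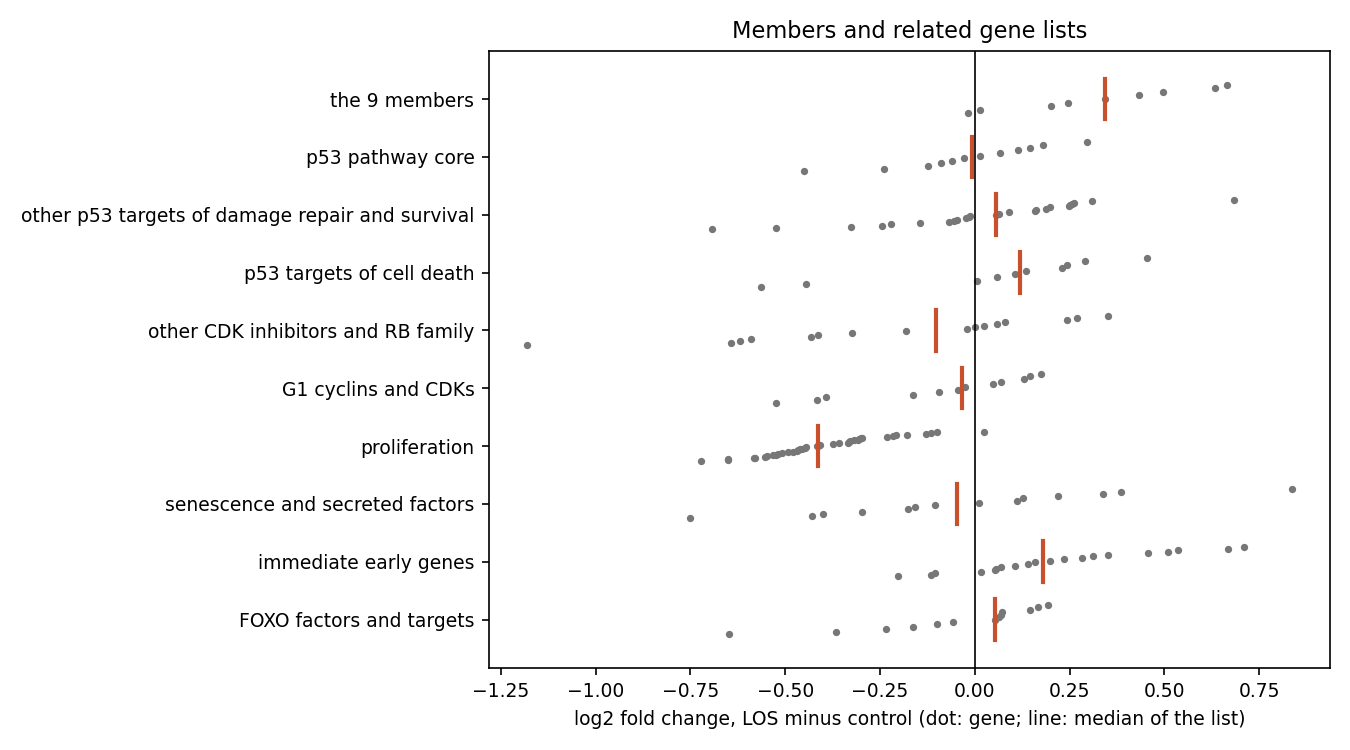
Log2 fold change of LOS against control for each tested gene of each list (horizontal axis, log2 scale; points, 1 per gene, ordered by value within a list) with the median of each list. The 9 genes have a median of 0.34, the 40 proliferation genes one of -0.41 with 39 below 0, and the p53 pathway core one of -0.01.

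LOS was next compared with control within each sex. For CDKN1A the log2 fold change was -0.19 ± 0.34 (SE) in females, with 2 controls and 3 LOS libraries, and 0.60 ± 0.30 in males, with 3 and 3. For TP53INP1 it was 0.15 ± 0.33 in females and 0.78 ± 0.29 in males. PLK2 and GADD45A were on the other side, with 1.17 ± 0.58 and 0.85 ± 0.32 in females and 0.28 ± 0.50 and 0.47 ± 0.28 in males. SESN1 had 0.29 ± 0.22 in females and -0.20 ± 0.20 in males. The difference between the sexes was tested as an interaction, and 0 of 17583 genes passed in edgeR (0%), with 870 at an unadjusted p under 0.05. DESeq2 called 6 genes for it, none of them among the 9, and limma voom called 0. The interaction of CDKN1A, male minus female, was 0.79 ± 0.45 (edgeR adjusted p = 0.921) and that of PLK2 was -0.90 ± 0.76 (adjusted p = 0.921). The female value of CDKN1A rests on control 2, the highest control, and was 0.29 without it, with control 1 as the only female control left. In females the value for TP53INP1 turned negative without control 1 (-0.24, with control 2 as the only female control left) or LOS 3 (-0.11).

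Between males and females, edgeR called 8 of 16946 genes (0.0472%), and none of the 9 genes was among them. SESN2 had the largest value of them, a log2 fold change of 0.44 ± 0.21 for male against female (edgeR adjusted p = 0.999). CDKN2B and TP53INP1 each had 0.33, and CDKN1A and CCNG1 lay at 0.00 and 0.01. As the values per library show, the 3 highest levels of SESN2 were all in males, but the male libraries control 3, control 4 and LOS 4 lay among the females.

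Part of the reads had been assigned to a parental allele, by a method that the sources used here do not give. The maternal share of all such reads was 50.5% to 50.9% per library, and the median over the 5696 genes tested was 49.6%. edgeR called 1142 genes for maternal against paternal (20%), of which 565 were higher from the maternal allele (9.92%) and 577 from the paternal allele (10.1%). The test covered 5 of the 9 genes, and 3 of them, SESN2, TP53INP1 and CDKN2B, were called with the maternal allele higher. CDKN1A and GADD45A were not called. SESN1 had too few allelic reads for the test, with a mean of 17.5 per library. PLK2 had allelic reads in only 2 controls, under the minimum of 3 libraries in each group.

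SESN2 had maternal shares of 59.1%, 58.3%, 56.8%, 61.3% and 61.2% in controls and 57.6%, 64.1%, 53.7%, 51.7%, 56.7% and 59.5% in LOS, on 499 to 2744 reads per library. The maternal allele was higher in 11 of 11 libraries, and the lowest share, in LOS 4, has an exact 95% Clopper-Pearson interval of 47.9% to 55.4%, which covers counting error only. The log2 ratio of maternal to paternal reads was 0.49 ± 0.06 (edgeR adjusted p = 1.2e-06, between 4.6e-07 and 1.1e-05 over 16 alternatives). A maternal lead in all 11 libraries was found at 173 genes (3.04% of those tested).

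TP53INP1 had maternal shares of 55.4%, 51.8%, 55.0%, 58.3% and 51.7% in controls. In LOS they were 60.8%, 52.7%, 55.6%, 56.7%, 55.1% and 59.6%, on 359 to 1439 reads in any library. The maternal allele again led in 11 of 11 libraries, by little in controls 2 and 5. The log2 ratio was 0.32 ± 0.06 (edgeR adjusted p = 0.00022, between 0.00018 and 0.0014 over 16 alternatives).

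CDKN2B had a mean maternal share of 59.5% ± 7.29 (SD, n = 11), from 46.8% in LOS 4 (72 of 154 reads) to 73.2% in control 5 (41 of 56 reads). The maternal allele was higher in 10 of 11 libraries, with LOS 4 the exception, and the share of genes with such a lead was not counted. Its log2 ratio was 0.55 ± 0.13 (edgeR adjusted p = 0.0028, between 0.00067 and 0.0099 over 16 alternatives). CDKN2B had 56 to 209 allelic reads per library, so single shares are less precise than those of SESN2.

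CDKN1A was nearly even, with shares of 46.3% to 51.3% on 799 to 2684 reads per library and a mean of 48.7% ± 1.55 (SD, n = 11). The paternal allele was higher in 9 of 11 libraries, and the share of genes with such a lead was not counted. A paternal lead in all 11, which CDKN1A did not have, was found at 144 genes (2.53%). The log2 ratio of CDKN1A was -0.07 ± 0.04 (edgeR adjusted p = 0.269). GADD45A had only 5 to 84 allelic reads per library, and its shares ran from 36.4% (4 of 11 reads, control 5) to 82.4% (14 of 17 reads, LOS 4). Its log2 ratio was 0.15 ± 0.21 (edgeR adjusted p = 0.664). SESN1 had 97 maternal and 96 paternal reads in all, over 10 libraries. PLK2 had allelic reads in 6 libraries, with maternal shares of 67.6% and 74.2% in controls 2 and 4 and 41.0% to 53.7% in LOS 1, 2, 4 and 6. These PLK2 shares rest on 31 to 117 reads each and were not tested.

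**Figure D4:**
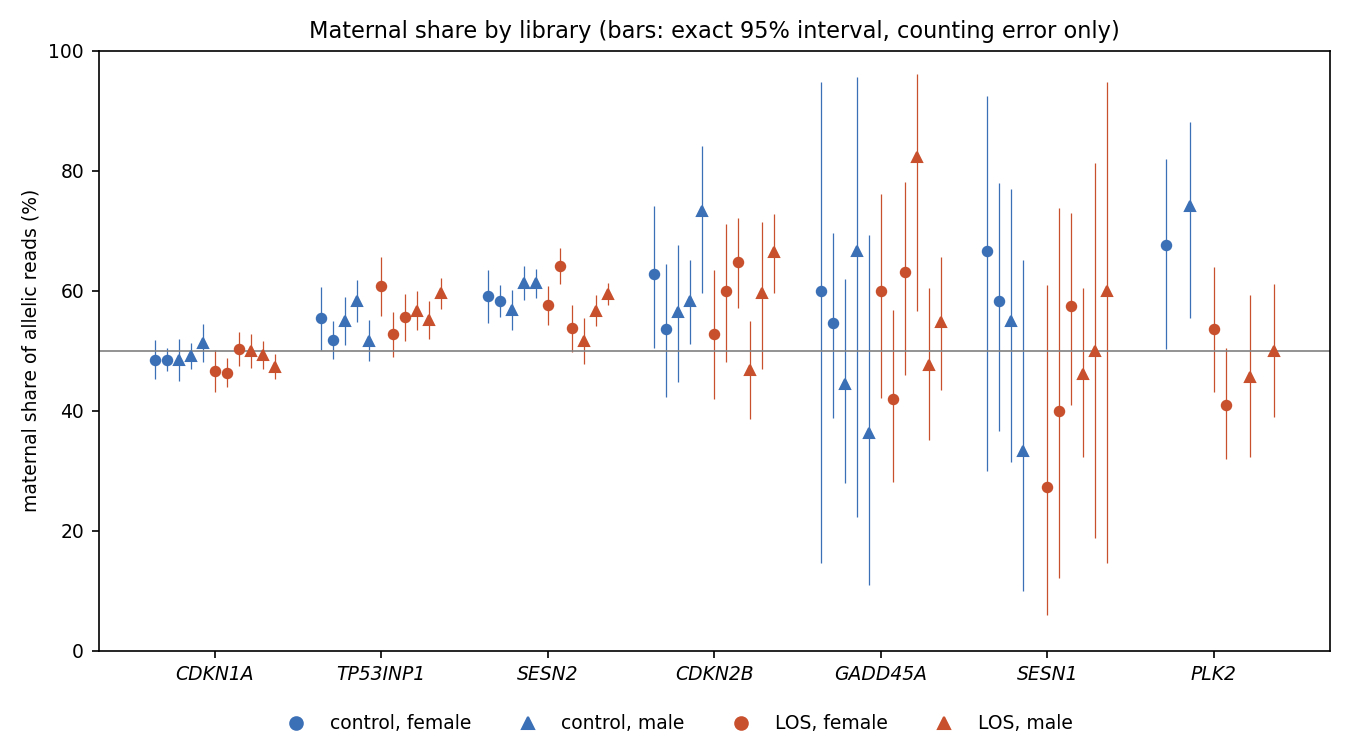
Maternal percent of allelic reads (vertical axis) of the genes with allelic reads, in each control and LOS library, with exact 95% intervals that cover counting error only. SESN2 and TP53INP1 lie above 50% in 11 of 11 libraries, CDKN1A lies between 46.3% and 51.3%, and GADD45A has wide intervals.

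No gene passed the edgeR test of a difference in allelic share between LOS and control, the allele by group term (0 of 5696 genes called, 0%, with 246 at an unadjusted p under 0.05, and 0 by limma voom). The differences in log2 ratio, LOS minus control, were 0.31 ± 0.41 for GADD45A, 0.14 ± 0.11 for TP53INP1, -0.05 ± 0.09 for CDKN1A, -0.08 ± 0.25 for CDKN2B and -0.12 ± 0.12 for SESN2 (edgeR adjusted p = 0.999). When total levels were split by the allelic share, the maternal allele of GADD45A had 11.4 to 15.2 CPM in controls and 18.6 to 29.8 CPM in LOS. Those groups did not overlap, as at 15 of 4254 genes (0.353%), but the split of GADD45A rests on 5 to 84 reads. The paternal allele of GADD45A had 5.70 to 20.1 CPM in controls, which overlapped with 4.90 to 32.6 CPM in LOS. For SESN2 the maternal allele had a mean of 62.4 ± 19.7 CPM in controls (SD, n = 5) and 75.0 ± 26.5 CPM in LOS (SD, n = 6), and the paternal allele 42.5 ± 11.4 and 55.6 ± 17.8 CPM.

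Several of the 9 genes followed each other across the 11 libraries, though no relation passed correction. Over 36 pairs of genes and 9 relations with the proliferation score below, 45 in all, 0 passed an adjusted p under 0.05, and 8 had an unadjusted p under 0.05 by Pearson's r and 10 by Spearman's rho. GADD45A and PLK2 had r = 0.77 (permutation p = 0.0054, adjusted 0.175) and rho = 0.71 (permutation p = 0.0177, adjusted 0.222). Without control 4 and LOS 2, the 2 libraries farthest from the median of GADD45A, their r was 0.47, so much of the relation rests on those libraries. TP53INP1 and CCNG1 had r = 0.72 (permutation p = 0.0138, adjusted 0.175) and rho = 0.62 (permutation p = 0.0489), with r = 0.74 without control 1 and LOS 5. CDKN1A and CCNG1 had r = 0.71 (permutation p = 0.0155, adjusted 0.175) and rho = 0.62 (permutation p = 0.0493), with r = 0.70 without control 3 and LOS 5. Once group and sex were removed, r was 0.76, 0.71 and 0.67 for these pairs in turn. Over all pairs r ran from -0.45 to 0.77, with 23 pairs above 0 and 13 below.

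A proliferation score was taken as the mean log2 CPM of the 40 proliferation genes. It was 3.74 ± 0.34 in controls (SD, n = 5) and 3.35 ± 0.58 in LOS (SD, n = 6), a difference that did not pass (exact permutation p = 0.212). LOS 1 had the highest score of all libraries, at 4.40, and LOS 5 the lowest, at 2.85. LOS 1 also had the lowest LOS level of CDKN1A, TP53INP1, CCNG1 and PLK2, and LOS 5 had the highest CDKN1A and TP53INP1 levels of all libraries. SESN1 and CDKN2B went the other way. LOS 1 had the highest SESN1 level of all libraries (11.3 CPM), and LOS 5 the lowest LOS level of CDKN2B (32.6 CPM). TP53INP1 had r = -0.75 with the score (permutation p = 0.0091, adjusted 0.175) and rho = -0.77 (permutation p = 0.0075, adjusted 0.222). Without LOS 1 and LOS 5 its r was -0.59. Within the 6 LOS libraries the r of TP53INP1 was -0.82 (exact permutation p = 0.0403, adjusted 0.446), and -0.02 without LOS 1 and LOS 5, so it rests on those libraries.

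PLK2 had r = -0.67 with the proliferation score (permutation p = 0.0262, adjusted 0.197), rho = -0.67 (permutation p = 0.0275), and -0.60 without LOS 1 and LOS 5. GADD45A had r = -0.62 (permutation p = 0.0439, adjusted 0.247), rho = -0.65 (permutation p = 0.0370), and -0.81 without them. CDKN1A had r = -0.48 (permutation p = 0.134) and rho = -0.55 (permutation p = 0.0874) over all 11 libraries, and -0.18 without LOS 1 and LOS 5. Within the 6 LOS libraries alone, the r of CDKN1A was -0.95, with an exact permutation p of 0.0014 and an adjusted p of 0.0625. That exact p is the smallest that 6 libraries can give. Within LOS without LOS 1 and LOS 5 the r of CDKN1A was -0.996, on the few libraries left. The controls were too few for an r of their own, and they did not show this order. Control 3 had both the lowest CDKN1A level (52.5 CPM) and the lowest control score (3.18). Control 1, with the highest control score (4.06), was at the control median of CDKN1A (72.2 CPM). Of the other genes, CCNG1 had r = -0.42, SESN2 -0.39 and CDKN2B -0.01, while MDM2 and SESN1 had r = 0.41 and 0.28. Whether the level of these genes differs between LOS and control at equal proliferation was not tested.

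**Figure D5:**
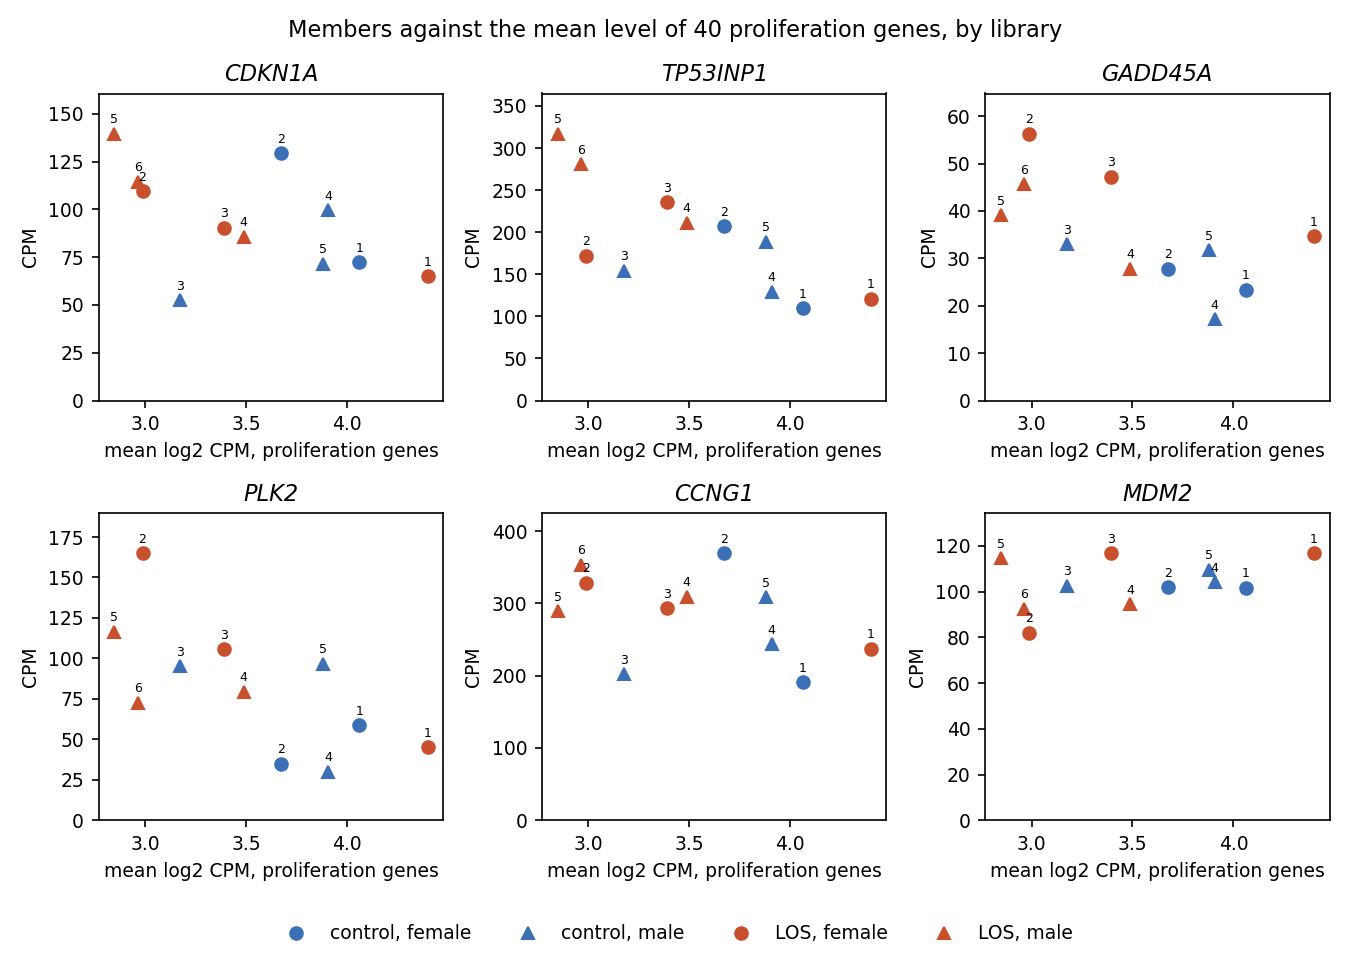
Level of CDKN1A, TP53INP1, GADD45A, PLK2, CCNG1 and MDM2 in CPM (vertical axes, from 0, 1 panel per gene) against the proliferation score, the mean log2 CPM of 40 proliferation genes (horizontal axes), 1 point per control or LOS library. TP53INP1 is lower where the score is higher (r = -0.75), and LOS 1 sits farthest to the right with a score of 4.40.

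Likeness to other genes was measured as Pearson's r of log2 CPM over the 11 libraries, given as a description. Closest to CDKN1A were LRP10 (0.96), KDM6B (0.96), LMBR1L (0.96) and YPEL4 (0.96). Closest to MDM2 were TGFB2 (0.91), CCDC141 (0.90), TSGA10 (0.89) and LOC112446866 (0.89), and closest to GADD45A were RELB (0.92), GPANK1 (0.91), OSER1 (0.91) and ZRANB1 (0.90). None of these genes belongs to the lists above, and none was called between LOS and control.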

How the data were processed

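Per the submitters' processing notes, the build was ARS-UCD1.2 and the tools included HISAT2 2.1.0, StringTie 2.1.4, Salmon 0.11.1, GATK and edgeR 3.36.0. The sources used here do not give each tool's role, how reads were counted, whether strand was used, or how alleles were called. The authors deposited expected counts per gene, not normalised, for 21862 annotated genes and 5536 assembled loci (71.2% whole values), and whole read counts per parental allele. A further deposited table holds expected counts times the allelic share (0 values beyond a tolerance of 0.001).

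Expected counts were rounded and fitted in R 4.3.3 with edgeR 4.0.16 (TMM, filterByExpr, quasi-likelihood, sex and group), with Benjamini-Hochberg adjustment over all genes and a threshold of 0.05. The interaction used sex by group. The allelic fit had terms for library, allele and allele by group, for autosomal genes with a mean of 20 allelic reads and 10 or more in at least 3 libraries of each group. Log2 CPM had a prior count of 2. Correlations used 100000 permutations (exact within LOS). Libraries of separate fetuses are the replicates, and PCR reads are not independent molecules. Scripts were tested on simulated data. DESeq2 1.42.0 and limma 3.58.1 were alternatives, with other scaling, filters and designs, and each library left out. Fits without assembled loci, and relations with each library left out, were chosen after seeing the data. The members and gene lists were chosen with earlier results of these data known. The text names the 9 genes, up to 4 genes of each list by smallest p, MDM4, CDKN1B, CDKN1C and CDKN2A, and the 4 genes most like CDKN1A, MDM2 and GADD45A; 1 result that the rule names is not reported here. Figures were drawn with matplotlib 3.10.9.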

Additional observations from a re-analysis of the deposited data

Results flagged for a closer look

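Among 33 groups of values checked for a library that stands apart (Dixon's gap over range), 3 were found, all of them control 5. Chance flags about 1 in 20 groups. MDM2 in control 5 was at 109.6 CPM, with 102 to 104 CPM in the other controls. SESN2 in control 5 was at 159 CPM, with 82.5 to 100.1 CPM in the other controls, and without this library its log2 fold change between LOS and control was 0.49. CDKN1A in control 5 had a maternal share of 51.3%, against 48.4% to 49.1% in the other controls.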

How the results depend on the processing

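The 3 allelic calls (SESN2, TP53INP1 and CDKN2B, maternal higher) held under all 16 alternatives each, and none of the 9 genes was called between LOS and control under any of 20. GADD45A kept a log2 fold change of 0.53 to 0.74 over its 20, with adjusted p from 0.349 to 1, and TP53INP1 one of 0.34 to 0.75. For GADD45A the allelic test could be fitted in 12 alternatives only, since it fell under the minimum of reads in the others.

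DESeq2 called 5 genes for LOS, 22 for sex (8 by edgeR) and 6 for the interaction. Sex calls numbered 3 without assembled loci. Control and LOS libraries of the same replicate number had correlations from -0.17 to 0.26 after group means were removed. These were not compared with other pairs, so whether the replicate numbers pair the libraries was not tested. With the replicate block, 2 genes were called for sex and 932 for the allele. With each library left out, calls ran from 0 to 0 for LOS and for the interaction, 3 to 7 for sex, 974 to 1082 for the allele, 0 to 1 for allele by group (1 without control 2, LOS 1 or LOS 2) and 0 to 0 for the relations.

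The other changes of direction were at differences that were not called, some of them small and others not, and the cause was not tested. For male against female, CDKN1A was at -0.000291 with DESeq2 size factors in edgeR, -0.000151 in DESeq2, -0.012 without assembled loci and -0.69 with the replicate block. The block also gave 0.14 for GADD45A, -0.27 for TP53INP1 and -0.43 for CCNG1. CCNG1 was at -0.00421 without assembled loci, and PLK2 at -0.00390 without the group term. With 1 library left out, male against female ran from -0.10 to 0.23 for CCNG1, -0.13 to 0.25 for CDKN1A, -0.084 to 0.032 for MDM2 and -0.056 to 0.45 for PLK2. LOS against control ran from -0.064 to 0.037 for MDM2 and -0.13 to 0.073 for SESN1. It kept its sign for PLK2 (0.44 to 0.84), CDKN2B (0.28 to 0.60) and SESN2 (0.24 to 0.49). In females LOS against control ran from -0.036 to 0.20 for MDM2, -0.37 to 0.59 for CCNG1, -0.24 to 0.69 for TP53INP1 and -0.55 to 0.29 for CDKN1A. Female fits without a female control rest on the other female control alone. In males LOS against control ran from -0.092 to 0.49 for CDKN2B and -0.11 to 0.52 for PLK2. The interaction of CCNG1 ran from -0.25 to 0.71, and allele by group for CDKN2B from -0.20 to 0.087. The low allelic reads of GADD45A, SESN1 and PLK2, and groups of 5 and 6, limit the precision.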
